A study of Mus musculus with 4 samples.

Results

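The genes described here are 8 components of the Nodal pathway, the ligands Nodal and Gdf3, the co-receptor Tdgf1, the receptors Acvr2b and Acvr1b, the transcription factor Foxh1 and the secreted antagonists Lefty1 and Lefty2. They were chosen by name, with earlier results of these data known. Every probe set that the platform annotation assigns to exactly 1 gene, that gene being one of the 8, was taken. This gave 15 probe sets of 34945 named ones, and 8 genes of 18193. No filter on low values was applied, so all 8 genes and all 15 probe sets entered the tests.

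RNA was measured on 4 Affymetrix arrays, with labelling from the 3' end of the transcripts. Of these, 2 came from mouse embryonic stem (ES) cells with a Snai1 knockout (titles KO.ES) and 2 from ES cells with the genotype field control (titles F/F.ES), the arrays of a group being described as biological replicates. The source name of the control samples also contains the words knock out, and the labels do not explain F/F, so the direction of every difference rests on the titles and the genotype field. Both groups were grown in standard ES medium with leukaemia inhibitory factor, which sustains self-renewal, on feeder cells, and received no other treatment. The labels give neither the strain nor the number of clones behind a group, nor what separated the replicates, so the p-values reflect the variation among these samples only, which may be technical. Snai1 encodes Snail, a zinc finger repressor best known for silencing epithelial genes.

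Nodal is a secreted TGF-beta family ligand that, in the mouse embryo, maintains the epiblast, induces mesoderm and endoderm and sets the left-right axis. It binds activin receptors, a type II receptor such as Acvr2b and the type I receptor Acvr1b (Alk4), in the presence of the co-receptor Tdgf1 (Cripto), and the receptors phosphorylate Smad2 and Smad3. These join Smad4 and act at enhancers with Foxh1, and Nodal itself, Lefty1 and Lefty2 are among the known targets, so the pathway feeds both its ligand and its antagonists. Undifferentiated mouse ES cells express these genes and signal through the pathway in an autocrine manner.

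The knocked-out gene had a single probe set, at 3.79 and 4.04 (log2) on the knockout arrays against 4.41 and 4.69 on the control arrays, a difference of -0.63 (limma adjusted p = 0.0692). All 4 values lay within the range of 24 control probe sets for Bacillus transcripts, 2.91 to 4.77, so the probe set does not check the labels. The 7 ES cell markers lay between 9.09 and 14.25 on all arrays, and their summed linear level was 37300 and 37600 in the knockout against 29900 and 31400 in the control. The median difference of the 7 was 0.14. Dppa5a differed by 0.14, Zfp42 by 0.02, Sox2 by -0.02 and Fbxo15 by -0.37, and none of them passed the test. The other 3 passed, all higher in the knockout, as were 1.98% of all genes. Pou5f1 rose by 0.85, Nanog by 0.94 and Esrrb by 1.05 (limma adjusted p = 0.034, 0.034 and 0.0426). None of these 3 calls held with any 1 array left out, but such a fit leaves a lone array in 1 group. Most calls over all genes were lost there too. The differences were then 0.80 to 0.90 for Pou5f1, 0.79 to 1.08 for Nanog and 0.77 to 1.33 for Esrrb. The call of Esrrb was also lost with its probe sets averaged (0.63, limma adjusted p = 0.0601). The summed linear level of 13 measured fibroblast markers, read for feeder cells, was 4430 and 3500 on knockout replicates 1 and 2 and 5080 and 3270 on control replicates 1 and 2. Their mean log2 level was 7.14 and 6.59 on the knockout replicates against 7.39 and 6.84 on the control ones. Single differences ran from -1.24 for Prrx1 to 0.46 for Col1a1, and S100a4, the brightest on every array, differed by 0.30. Of the 13 markers 9 were higher on replicate 1 in both groups, with Fap inside the background range on all arrays. For 8 extraembryonic endoderm markers the summed linear levels were 344 and 333 in the knockout against 425 and 369 in the control. The largest single differences were -0.84 for Pdgfra, 0.40 for Sox17, -0.33 for Dab2 and 0.30 for Afp, and none of the 8 passed. Sox7 lay inside the background range on all arrays, and Afp, Sox17, Gata4 and Gata6 lay inside it or near its upper edge. The arrays also differed, for 3 of 4 control genes, in the gap between control probe sets at the 3' and the 5' end of a transcript, a measure of how far labelling reached. For Actb the gap was 1.11 and 0.80 in the knockout against 3.02 and 2.97 in the control, and for Gapdh 0.40 and 0.27 in the knockout against 1.24 and 1.48 in the control. The Tfrc gap was likewise smaller in the knockout, by 1.01, whereas the Pcx gap was 0.55 and 0.60 in the knockout against 0.63 and 0.65 in the control. The gaps of Actb, Gapdh and Tfrc separated both knockout arrays from both control arrays. Their part in the results that follow cannot be told apart from that of the genotype and was not tested. The part of the ES cell marker levels and of the feeder cells was not tested either. In RNA from whole cultures, fewer cells of a type cannot be told apart from less RNA per cell.

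**Figure D1:**
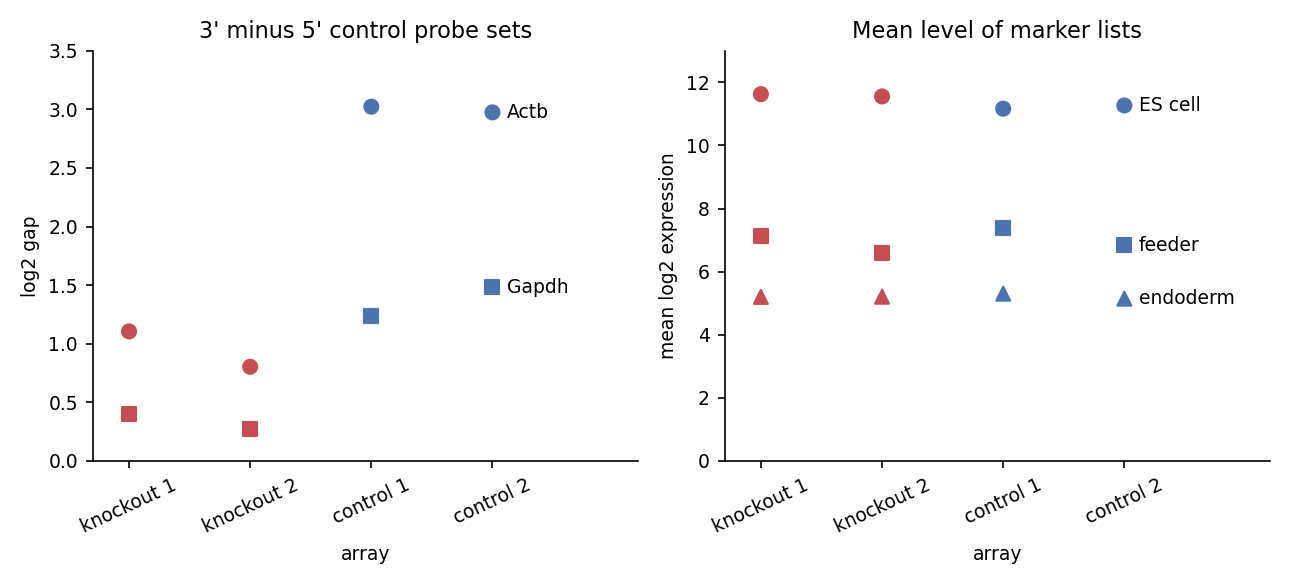
Left, log2 gap between the 3' and the 5' control probe set of Actb (circles) and Gapdh (squares) on each array, knockout in red and control in blue. Right, mean log2 expression of the 7 ES cell (circles), 13 feeder fibroblast (squares) and 8 extraembryonic endoderm markers (triangles). Both gaps were smaller on the 2 knockout arrays, and the feeder mean was higher on replicate 1 of either group.

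With each gene represented by its brightest probe set, Acvr2b and Foxh1 were higher in the Snai1 knockout and none of the 8 genes was lower (limma, Benjamini-Hochberg adjusted p under 0.05). Over all 18193 genes 1.98% (360) were higher and 2.17% (394) lower by the same test, a split that turned to 527 higher and 337 lower after a further quantile normalization. The knockout and control arrays did not overlap for 5 of the 8 genes, against 52.3% of all genes, so the lack of overlap alone is close to the background. The median difference of the 8 genes was 0.25 on the log2 scale, against -0.02 over all genes. Of the 8 differences 7 were above 0, as were 8473 of the 18193 over all genes, and those of Tdgf1, Acvr1b and Nodal were only 0.02 to 0.07. The 2 calls lay just inside the threshold. When every probe set was tested by itself, 0 of the 15 passed (limma), 7 had an unadjusted p under 0.05, against 21.7% of all probe sets. By the adjusted p 0.612% of all 34945 probe sets were higher and 0.177% lower. Probe sets differ in how strongly they bind, so levels are compared between arrays and not between genes.

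**Figure D2:**
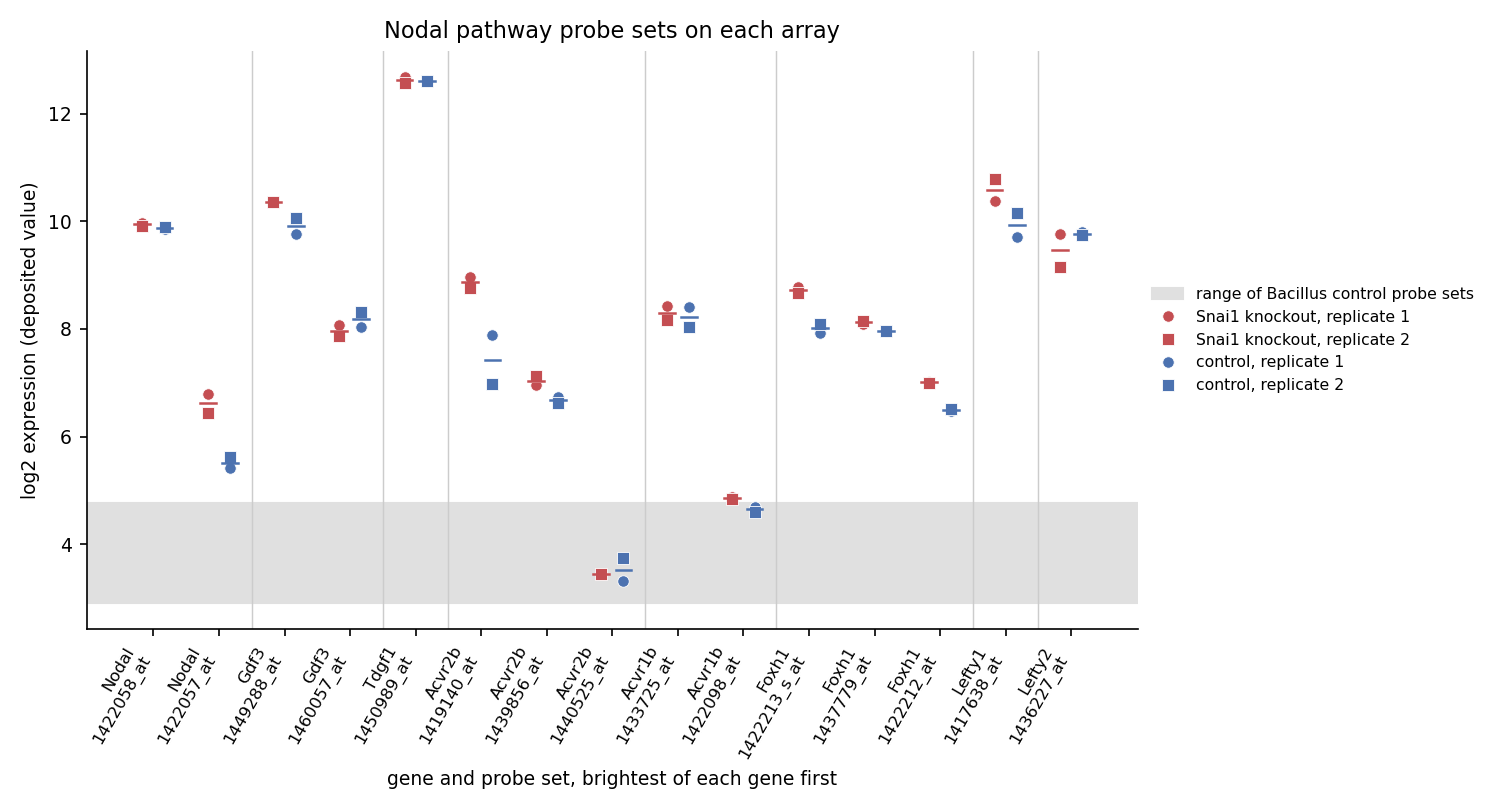
Deposited log2 expression of the 15 probe sets on each array, Snai1 knockout (red) left of control (blue), circles for replicate 1, squares for replicate 2 and short lines for group means. The grey band spans the Bacillus control probe sets, 2.91 to 4.77. The probe sets 1419140_at of Acvr2b and 1422057_at of Nodal stand well apart between the groups, while that of Tdgf1 does not.

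The ligand Nodal was measured by a bright and a dimmer probe set, which gave different results. The bright one, 1422058_at, was at 9.97 and 9.91 in the knockout against 9.85 and 9.89 in the control. Its difference of 0.07 (95% interval -0.24 to 0.38) did not pass (limma adjusted p = 0.810), although the groups did not overlap. The dimmer one, 1422057_at, was at 6.80 and 6.43 in the knockout against 5.41 and 5.62 in the control, with every knockout value above every control value. The knockout thus read 2.15-fold higher on this probe set, a log2 difference of 1.10 ± 0.17 (SE), just short of the threshold among all probe sets (limma adjusted p = 0.0520). This probe set passed under 7 of the alternatives tried, given under the dependence on processing. With both Nodal probe sets averaged, the difference was 0.59 ± 0.13 (SE, limma adjusted p = 0.0689).

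Gdf3, a second TGF-beta family ligand, which signals through the same receptors and can also bind and inhibit BMPs, was at 10.35 on both knockout arrays. The control arrays were lower and farther apart, at 9.77 and 10.07. The difference of 0.43 ± 0.15 (SE; 95% interval 0.08 to 0.79) did not pass (limma adjusted p = 0.136). Its other probe set, 1460057_at, pointed the other way, with 8.07 and 7.87 in the knockout against 8.04 and 8.32 in the control, and these groups overlapped. That difference was -0.21 ± 0.16 (SE, limma adjusted p = 0.522 over all probe sets).

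Tdgf1, the membrane-anchored co-receptor that lets Nodal engage its receptors, was nearly level on all 4 arrays. It was at 12.68 and 12.57 in the knockout and 12.61 on both control arrays, so that the control values fell between the knockout ones. The difference was 0.02 with a 95% interval of -0.30 to 0.33 (limma adjusted p = 0.966), which leaves room for a change of that size in either direction.

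Acvr2b, the type II receptor that binds the ligand first and then activates the type I receptor, had the largest difference among the 8 genes. Its brightest probe set, 1419140_at, was at 8.97 and 8.76 in the knockout against 7.88 and 6.98 in the control. The groups did not overlap, but the SD over 2 arrays was 0.14 in the knockout against 0.64 in the control, control replicate 2 being the low array. The log2 difference was 1.43 ± 0.28 (SE), or 2.70-fold, with a limma adjusted p of 0.0434. A second probe set, 1439856_at, was at 6.95 and 7.12 in the knockout against 6.74 and 6.62 in the control, a difference of 0.36 ± 0.14 (SE, limma adjusted p = 0.208 over all probe sets). The third, 1440525_at, lay between 3.32 and 3.74 on all arrays, inside the background range. By limma the call was lost when knockout replicate 1 was left out (1.33, adjusted p = 0.0917), and likewise for knockout replicate 2 (1.54, adjusted p = 0.137) and control replicate 2 (0.98, adjusted p = 0.130). It was lost too when the 3 probe sets were averaged (0.57, adjusted p = 0.0673). The call was kept without control replicate 1 (1.89, limma adjusted p = 0.0404).

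Acvr1b, the type I receptor kinase that phosphorylates Smad2 and Smad3, was at 8.43 and 8.16 in the knockout against 8.41 and 8.04 in the control. The values followed the replicate number more than the genotype, and the groups overlapped. The difference was 0.07 (95% interval -0.35 to 0.49, limma adjusted p = 0.872). Its other probe set, 1422098_at, was at 4.88 and 4.84 in the knockout against 4.70 and 4.61 in the control, at the upper edge of the background range.

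Foxh1, the forkhead factor that recruits the Smad complex to Nodal-responsive enhancers, had 3 probe sets, and on each of them both knockout arrays lay above both control arrays. Over the 15 probe sets 10 did not overlap between the groups, against 51.5% of all probe sets. The brightest, 1422213_s_at, was at 8.78 and 8.67 in the knockout against 7.93 and 8.09 in the control. The log2 difference was 0.72 ± 0.14 (SE), or 1.64-fold, with a limma adjusted p of 0.0441. The probe set 1422212_at was at 7.01 and 7.00 in the knockout against 6.47 and 6.51 in the control, a difference of 0.51 ± 0.13 (SE, limma adjusted p = 0.0880 over all probe sets). The third, 1437779_at, was at 8.10 and 8.16 in the knockout against 7.97 and 7.95 in the control, a difference of 0.17 (limma adjusted p = 0.525). The call was lost with any 1 array left out, at differences of 0.63 to 0.80, as were most calls over all genes in such fits. It was also lost when its probe sets were averaged (0.47, adjusted p = 0.0793), with an intensity trend (adjusted p = 0.0609) and after removal of the trend with gene span (0.53, adjusted p = 0.0724), each by limma.

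The antagonists Lefty1 and Lefty2 are closely related secreted proteins that block the co-receptor and the ligand, and their genes lie on chromosome 1 with 3 annotated genes between them (RefSeq, GRCm38.p6). Lefty1 was at 10.37 and 10.78 in the knockout against 9.70 and 10.15 in the control. All knockout values lay above the control values, by 0.65 ± 0.21 on average (SE; 95% interval 0.16 to 1.13), without passing (limma adjusted p = 0.109). Lefty2 was at 9.77 and 9.16 in the knockout against 9.81 and 9.74 in the control. Its difference was -0.31 ± 0.21 (SE; 95% interval -0.80 to 0.17, limma adjusted p = 0.428), and knockout replicate 2 was the array that stood low. The log2 gap of Lefty1 over Lefty2 was 0.60 and 1.62 in the knockout against -0.11 and 0.42 in the control. These gaps did not overlap, and their difference was not tested. Whether the probe set of one Lefty gene binds transcripts of the other is not stated in the sources used here.

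**Figure D3:**
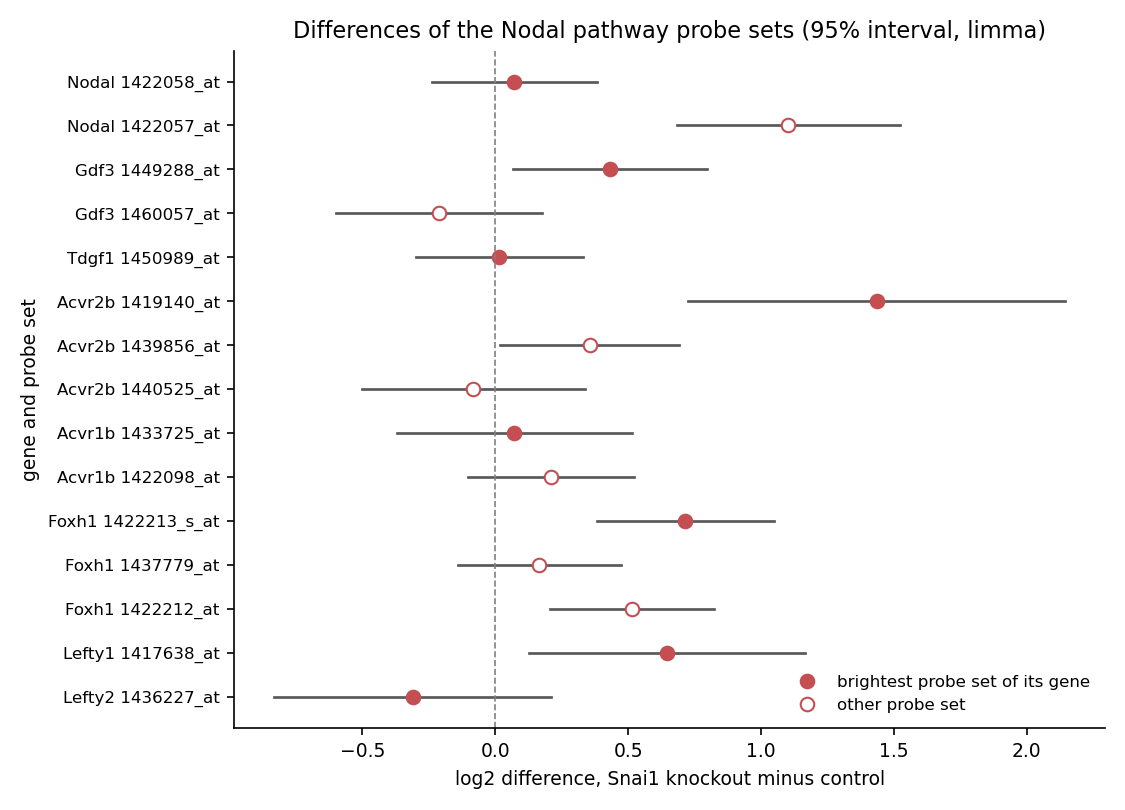
Log2 difference, Snai1 knockout minus control, of each of the 15 probe sets with its 95% interval from the fit over all 34945 named probe sets. Filled points are the brightest probe set of a gene and open points the others. Probe sets of Nodal, Gdf3 and Acvr2b are spread along the axis, while the 3 of Foxh1 all lie right of 0.

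Because probe sets of the same gene gave different sizes, the gap between the brightest and the second brightest probe set, both at a mean of 5 or more, was fitted for all 4928 genes with such a pair, a comparison chosen after the values were seen. By limma 0 of these genes passed (0%), and 1566 (31.8%) had an unadjusted p under 0.05. The 4 pathway genes with such a pair were among the 1566. The Nodal gap was 3.17 and 3.48 in the knockout against 4.44 and 4.27 in the control, a difference of -1.03 ± 0.18 (SE, limma adjusted p = 0.0584). The gap was wider in the knockout by 1.08 ± 0.31 for Acvr2b, by 0.64 ± 0.15 for Gdf3 and by 0.55 ± 0.16 for Foxh1 (SE, limma adjusted p = 0.0993, 0.0793 and 0.101). Without control replicate 1, which leaves a lone control array, the difference of the Acvr2b gap was 1.47. Where along the transcript each probe set lies is not stated in the sources used here, and on the same arrays the 3' to 5' gap of Actb was smaller in the knockout by 2.04, so the part of that gap in these values was not tested.

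RefSeq promoter sequences (GRCm38.p6, 250 bases before to 50 after the annotated start) were at hand for 4 of the 8 genes, and 3 are shown: Acvr2b, whose brightest probe set rose, Nodal, whose probe sets differed, and Tdgf1, which alone of the 4 held a searched motif. Capitals mark CACCTG (or CAGGTG on the other strand), the E-box bound by Snail. The other motifs searched on both strands were AATNCACA, a Foxh1 core, and GTCTAGAC, a palindromic Smad box, with no overlap between motifs.
Acvr2b (chr9:119401928-119402227, plus strand): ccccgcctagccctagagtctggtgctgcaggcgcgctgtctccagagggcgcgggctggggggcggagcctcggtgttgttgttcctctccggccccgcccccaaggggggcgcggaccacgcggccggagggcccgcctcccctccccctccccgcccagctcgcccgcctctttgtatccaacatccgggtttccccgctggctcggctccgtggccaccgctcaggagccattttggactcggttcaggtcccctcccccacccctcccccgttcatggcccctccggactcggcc
Nodal (chr10:61417722-61418021, plus strand): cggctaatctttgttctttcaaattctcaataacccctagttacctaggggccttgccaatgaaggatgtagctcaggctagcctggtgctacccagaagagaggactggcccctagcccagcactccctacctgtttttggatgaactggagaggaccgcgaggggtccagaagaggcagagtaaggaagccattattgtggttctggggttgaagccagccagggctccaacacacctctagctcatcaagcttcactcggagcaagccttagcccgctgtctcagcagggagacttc
Tdgf1 (chr9:110946109-110946408, minus strand): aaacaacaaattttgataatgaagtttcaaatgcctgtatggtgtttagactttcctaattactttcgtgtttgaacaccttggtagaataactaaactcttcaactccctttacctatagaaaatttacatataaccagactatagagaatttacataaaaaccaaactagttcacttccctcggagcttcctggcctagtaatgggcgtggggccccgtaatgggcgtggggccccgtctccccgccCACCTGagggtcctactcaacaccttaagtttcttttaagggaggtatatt
The Tdgf1 window held 1 E-box, across the annotated start, and its transcript level differed by 0.02. The windows of Acvr2b, Nodal and Acvr1b held none of the 3 motifs. Of all 32851 promoters in the table, 20.2% held the E-box, 3.6% the Foxh1 core and 0.213% the Smad box. The GC content was 73.3% for Acvr2b, 54% for Nodal and 41.7% for Tdgf1. These matches describe letters in a short window and do not show binding.

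Beyond the 8 genes, 41 further genes of Nodal and activin signalling were listed, and 38 were measured. Of these 2 were higher and 3 lower in the knockout (limma adjusted p under 0.05), against 1.98% higher and 2.17% lower over all genes. The median difference of the 38 was -0.07. All but 1 of the 5 were nuclear or cytoplasmic regulators that restrain or modify Smad signalling. In that group of 12, Drap1, a corepressor that in the mouse embryo limits Nodal signalling through Foxh1, was at 8.72 and 8.95 in the knockout against 7.57 and 7.48 in the control. It rose by 1.31 ± 0.15 (SE, limma adjusted p = 0.0186). Tgif1, a homeodomain corepressor of Smad2 and Smad3, rose by 0.99 ± 0.15 (SE, limma adjusted p = 0.0317), with 9.94 and 10.06 in the knockout against 8.89 and 9.14 in the control.

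Skil, which encodes the Smad corepressor SnoN, fell, with 10.68 and 10.77 in the knockout against 11.65 and 11.51 in the control. Its difference was -0.85 ± 0.14 (SE, limma adjusted p = 0.0340). Trim33, a ubiquitin ligase and chromatin reader that binds activated Smad2 and Smad3, fell by 0.78, with 10.41 and 10.49 in the knockout against 11.21 and 11.25 in the control (SE 0.13, limma adjusted p = 0.0367). A second bright Trim33 probe set differed by -0.77 (limma adjusted p = 0.0572 over all probe sets). Smad7, the inhibitory Smad induced by the pathway, was at 9.68 and 9.29 in the knockout against 9.05 and 8.72 in the control, a difference of 0.60 (limma adjusted p = 0.102), while its other probe set differed by -0.16. None of Drap1, Tgif1, Skil and Trim33 passed with any 1 array left out (limma adjusted p of 0.0519 to 0.152), and Skil and Trim33 did not pass when a gene's probe sets were averaged (0.0720 and 0.0594). Trim33 was also lost after removal of the trend with gene span (-0.54, limma adjusted p = 0.0784).

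Among the receptors Acvr2a, the other activin type II receptor, fell, opposite in sign to Acvr2b. It was at 7.20 and 7.07 in the knockout against 7.86 and 7.71 in the control, a difference of -0.66 ± 0.14 (SE, limma adjusted p = 0.0494). Its second probe set differed by -0.66 (limma adjusted p = 0.0829 over all probe sets). The call did not hold with any 1 array left out, at differences of -0.73 to -0.58, nor did most calls over all genes. It was also lost after quantile normalization (limma adjusted p = 0.0615) and with each array centred on its median (0.0505). An intensity trend (0.0710), removal of the span trend (0.0926) and averaging of its probe sets (0.0573) removed it as well. Acvr1c, a further type I receptor, lay within the background range at 4.10 to 4.27.

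In the remaining groups no gene passed. The activin subunit gene Inhbb differed by -0.54 ± 0.14 (SE, limma adjusted p = 0.0681) on its brightest probe set. Its other probe set, 1426859_at, differed by 0.03 (limma adjusted p = 0.932 over all probe sets). Inhba, the other activin subunit gene, was at 9.28 and 8.03 on knockout replicates 1 and 2 and at 9.41 and 7.65 on control replicates 1 and 2, a spread between replicates larger than its difference of 0.12. It was higher on replicate 1 of both groups, as were 9 of the 13 feeder markers, and their part in its level was not tested. Among the antagonists Fst, the activin-binding follistatin, was at 6.77 and 5.83 in the knockout against 7.20 and 6.94 in the control (difference -0.77, limma adjusted p = 0.157). Without knockout replicate 2 this difference was -0.30, and the other Fst probe set differed by 0.14, with overlapping groups. Fstl3, a follistatin-related activin antagonist, was at 5.92 and 6.13 in the knockout against 5.62 and 5.19 in the control (difference 0.62, limma adjusted p = 0.0896). Cer1, a Nodal antagonist of the visceral endoderm, lay within the background range at 4.13 to 4.16. Cfc1, the second co-receptor of the Tdgf1 family, differed by 0.02, and Furin, a convertase that cleaves the Nodal precursor, by 0.14.

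The Smad transducers had differences of -0.28 for Smad2, -0.55 for Smad3 and -0.18 for Smad4 on their brightest probe sets (limma adjusted p = 0.315, 0.0903 and 0.640). Smad2 and Smad3 did not overlap between the groups, nor did 52.3% of all genes. The other Smad2 probe set differed by -0.58 (limma adjusted p = 0.0828 over all probe sets). Those of Smad4 differed by 0.42 and 0.005, and the dimmer ones of Smad3 lay within the background range. Among the known targets Eomes, a T-box factor of mesendoderm, was at 7.41 and 6.38 in the knockout against 7.03 and 7.16 in the control on its brightest probe set (difference -0.20, limma adjusted p = 0.762). Its other probe set differed by 0.83 (limma adjusted p = 0.0984 over all probe sets). Fgf8, a fibroblast growth factor of the primitive streak, had the largest difference among the 7 targets, 0.64 (limma adjusted p = 0.171), and the only unadjusted p under 0.05 (0.0349). It was at 6.547 and 5.748 in the knockout against 5.503 and 5.520 in the control, and without knockout replicate 1 the difference was 0.24. Fgf8 and Fstl3 were added after their values were seen. Pmepa1, a feedback inhibitor, had the largest difference among targets at a mean of 6 or more, -0.28 (limma adjusted p = 0.458), and its dimmer probe set 1422705_at differed by 1.05 (limma adjusted p = 0.110 over all probe sets).

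**Figure D4:**
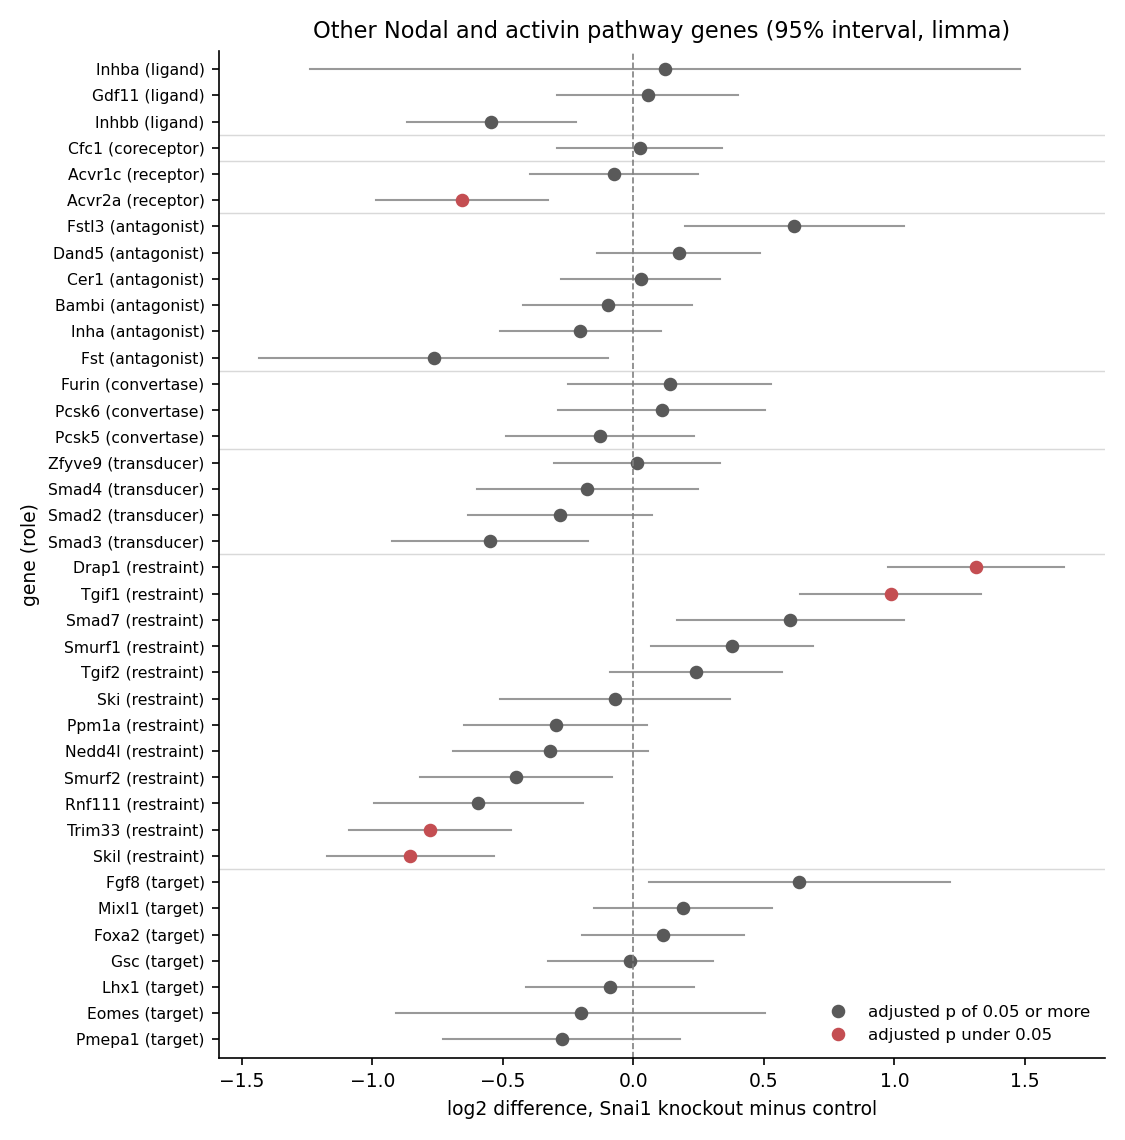
Log2 difference, Snai1 knockout minus control, of 38 further Nodal and activin pathway genes by role, with 95% intervals from the fit over 18193 genes. Red points are the 5 genes past the threshold, Drap1 and Tgif1 to the right and Acvr2a, Trim33 and Skil to the left of 0.

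The genes whose profile over the 4 arrays was nearest to that of the bright Nodal probe set were Paxx, Rcan3 and Nkx2-3, with root mean square differences of 0.00490, 0.00604 and 0.00692 after each gene was centred on its mean. Since the Nodal profile was nearly flat, 1142 of 9483 genes at a mean of 6 or more lay within 0.1 of it, so this likeness singles out no gene.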

How the data were processed

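RNA levels were measured in 2 Snai1 knockout and 2 control ES cell samples. The deposited values are on the log2 scale, for 45101 probe sets on each array, with array medians of 4.91 to 4.95, and per the submitters' processing notes RMA and limma were used, both without a version. The genome build is not stated in the sources used here. Quantile steps of this kind equalise the arrays and may mask a change common to most genes.

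The platform annotation held by GEO named the probe sets: 34945 had 1 gene symbol, 932 several and 9160 none, with 64 controls set aside. The brightest probe set, by mean over the arrays, stood for each gene. Knockout was compared with control by limma 3.58.1 in R 4.3.3, without covariates, two-sided, with Benjamini-Hochberg adjustment over all genes or all named probe sets at a threshold of 0.05. The fit was checked on simulated data with known log2 changes in 200 genes, or 200 probe sets, and independent noise. It called 113 genes there, against 360 higher and 394 lower in the data, so the recovered shares need not hold for the data. It recovered 1.49% of genes changed by 0.5, 59.7% of those changed by 1 and 100% of those changed by 2. For single probe sets the shares were 0%, 8.96% and 92.4%, so a difference that did not pass does not show a lack of change. The error of a gene rested on 2 residual and 5.31 prior degrees of freedom, and the number of arrays limits the precision. The members and lists were chosen with earlier results of these data known. All 8 genes were named, and of the other pathway genes those past the threshold, the largest difference at a mean of 6 or more in each role with none, and Smad2, Smad3, Smad4, Smad7, Inhba, Inhbb, Cer1, Fst and Eomes, with Fstl3, Fgf8 and the ES cell markers past the threshold added after their values were seen. The alternatives were other eBayes settings, normalizations, filters on dim genes, averaging of probe sets, a replicate block, removal of the trend with gene span (loess, span 0.3) and leaving out each array.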

Additional observations from a re-analysis of the deposited data

How the results depend on the processing

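Of 104 recomputed differences of the 8 genes, 86 kept their direction and their side of the threshold, 11 lost the call, 1 gained it and 6 changed sign. The number of the 8 genes that were higher, 2, became 1 with an intensity trend, 1 after removal of the gene span trend, 0 when a gene's probe sets were averaged and 0 to 1 with an array left out. None of the 8 was lower under any alternative run. Of the 15 probe sets, 0 were higher in the fit as reported, 1 with an intensity trend, 1 with robust eBayes and 2 after quantile normalization. At a mean of 5 or more 1 was higher, at a mean of 6 or more 2, and after removal of the span trend 1. The share of all probe sets that passed was not counted for these fits or for the replicate block. Whether the gains are particular to the 15 therefore cannot be read from them. The probe set 1422057_at of Nodal passed in 7 of these fits, the replicate block included, at adjusted p-values of 0.0264 to 0.0493.

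The replicate numbers of the titles were entered as a block. Deviations of same-numbered arrays correlated at 0.29 over genes, but with 2 pairs and no label that ties the numbers to a batch the arrays share only a number. With the block 3 of the 8 genes were higher, Lefty1 being added (adjusted p = 0.00991), as were 4 of the 15 probe sets. Of the other pathway genes 5 were higher, Fstl3 and Fgf8 among them (adjusted p = 0.0248 and 0.0318), and 7 lower with it, and of all genes 1200 were higher and 1892 lower.

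Of the 38 other pathway genes, 2 higher and 3 lower became 0 and 0 with any array left out, and 0 were lower with probe sets averaged. Over all genes, 360 higher became 224 with probe sets averaged and 2 to 46 with an array left out. The 394 lower became 198 with an intensity trend, 699 at a mean of 6 or more, 204 after removal of the span trend, 97 with probe sets averaged and 2 to 4 with an array left out. A lone array was assumed to vary like the remaining pair.

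The sign changes were all of differences that did not pass. After removal of the span trend the gene-level difference was -0.0389 for Nodal, -0.039 for Tdgf1 and 0.0529 for Smad4, and among single probe sets it was -0.0552 for 1422058_at of Nodal, -0.0269 for 1437779_at of Foxh1 and -0.0752 for 1450989_at of Tdgf1. After quantile normalization Tdgf1 was at -0.0011 among genes and -0.0229 among probe sets. With an array left out the differences ranged across 0 for Tdgf1 (-0.039 to 0.0697), Acvr1b (-0.12 to 0.26), the background-level probe set 1440525_at of Acvr2b (-0.29 to 0.13), Inhba (-0.76 to 1.003), Smad4 (-0.36 to 0.0043) and Eomes (-0.72 to 0.32). With probe sets averaged Smad4 was at 0.0815 and Eomes at 0.31. The cause of these changes was not tested. Signal near the background range limits what the dimmest probe sets of Acvr2b and Acvr1b can show.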
